A study of Homo sapiens with 8 samples.

Results

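The 10 genes described here set how much active eIF2, the translation initiation factor that carries the initiator tRNA to the ribosome, and how much free eIF4E, the protein that binds the mRNA cap, a cell has. They are the eIF2 alpha kinases EIF2AK1 (HRI), EIF2AK2 (PKR), EIF2AK3 (PERK) and EIF2AK4 (GCN2), the phosphatase subunits PPP1R15A (GADD34) and PPP1R15B (CReP), the eIF2 alpha subunit EIF2S1, the 4E-binding proteins EIF4EBP1 and EIF4EBP2, and IMPACT, an inhibitor of GCN2 activation. They were taken by gene symbol from the deposited tables, and all 10 of 10 were found, each in 1 row, among the 57884 genes listed. The cells were hTERT-RPE1, a line of human retinal pigment epithelium made immortal by telomerase. Cells with wild-type ATF3, a transcription factor induced by stress, and cells labelled ATF3 knockout were sampled from complete medium or after 8 h in serine/glycine-free medium. The labels give 4 groups of 2 libraries, 8 in all: wild type in complete medium, wild type in serine/glycine-free medium, labelled knockout in complete medium and labelled knockout in serine/glycine-free medium. Each group has 1 library from each of 2 batches, which the series text describes as independent experiments on treated cells. The sources used here do not give the knockout allele or the number of clones.

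The kinases each phosphorylate eIF2 alpha in answer to a different stress: HRI to haem loss and mitochondrial damage, PKR to double-stranded RNA, PERK to unfolded protein in the endoplasmic reticulum and GCN2 to uncharged tRNA when an amino acid runs short. Phosphorylated eIF2 blocks its own exchange factor eIF2B, which lowers general translation and favours mRNAs such as that of the transcription factor ATF4, and PPP1R15A or PPP1R15B then brings protein phosphatase 1 to eIF2 to remove the phosphate. The 4E-BPs hold eIF4E when the kinase mTORC1, which senses amino acids, is inactive. These steps run on proteins and their phosphorylation, neither of which was measured. The values below are mRNA levels only.

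Values are FPKM, fragment counts scaled by transcript length and library size, and tests used limma on log2(FPKM + 1) for the 17994 genes at 1 FPKM or more in at least 2 libraries, with the batch as a block and p-values adjusted over all of them. FPKM sums of the libraries ran from 2429662 to 3148153, with 60.5% to 65.7% in small RNA genes, and absolute depth is unknown. Libraries correlated at r = 0.920 to 0.957 across genes within a batch and 0.768 to 0.815 between batches, with genes not being independent replicates. ATF3 mRNA itself stood at 3.47, 6.46, 3.38 and 4.45 FPKM in batch 1 (wild type complete and serine/glycine-free, then labelled knockout complete and serine/glycine-free) and at 3.65, 18.01, 20.8 and 57.3 FPKM in batch 2, so in batch 2 it goes against the knockout label, and directions between genotypes are given for the labels. Both batch 2 libraries labelled knockout also stood apart in some epithelial and mesenchymal markers. CDH1 was at 60.0 and 56.2 FPKM there against 0.20 to 1.23 FPKM elsewhere, and VIM at 118 and 102 FPKM against 598 to 1247 FPKM. Not all markers followed this. KRT8 was highest in wild type of batch 1, and FN1 (38.3 and 56.7 FPKM) was near wild type of batch 2 (44.5 and 58.7 FPKM). Other markers split by batch in both genotypes. KRT19 was at 0 to 0.74 FPKM in batch 1 and 216 to 375 FPKM in batch 2. SPARC was at 343 to 429 FPKM in batch 1 and 0.09 to 1.66 FPKM in batch 2. Of 9 retinal pigment epithelium markers, 6 were below 1 FPKM in both media in each genotype and batch, but not the same 6 throughout. PAX6 was at 0.02 to 0.23 FPKM in batch 1 and 5.20 to 12.8 FPKM in batch 2. MITF was at 1.96 to 6.55 FPKM and SERPINF1 at 0.78 to 8.26 FPKM over the 8 libraries. OTX2 was listed at 0 in all 8 libraries. The immune markers PTPRC, CD3E and CD14 were below 1 FPKM in every library. CD68, the other gene of that list, was at 1.68 to 4.27 FPKM in batch 1 and 9.64 to 15.1 FPKM in batch 2. In bulk RNA, fewer cells of a type and less RNA per cell cannot be told apart.

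The 10 genes all reached 1 FPKM in each of the 8 libraries and passed the filter. On this length-corrected scale EIF2S1 had the highest mean level, 167 FPKM over 8 libraries, above 97.7% of the protein-coding genes tested. EIF4EBP1 followed at 113 FPKM. EIF2AK1 (39.4 FPKM), PPP1R15B (26.0), PPP1R15A (20.2), EIF2AK4 (18.4), EIF2AK2 (13.8), IMPACT (10.2) and EIF4EBP2 (9.84) came next, and EIF2AK3 was lowest at 6.65 FPKM, above 38.8% of coding genes. Neighbours from EIF2AK1 to EIF2AK3 in this order overlap in their ranges over the 8 libraries, as do EIF2S1 and EIF4EBP1. EIF2AK1 stood at 44.9 to 57.6 FPKM in batch 1 and 21.9 to 33.2 FPKM in batch 2, and EIF4EBP2 at 4.82 to 6.51 FPKM in batch 1 and 9.47 to 21.6 FPKM in batch 2. For these 2 genes the batches do not overlap, and since the tables were normalized separately their levels are compared below only within a batch. Where ranges or orders over all 8 libraries are given below for other genes, they cross the 2 separately normalized tables.

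**Figure D1:**
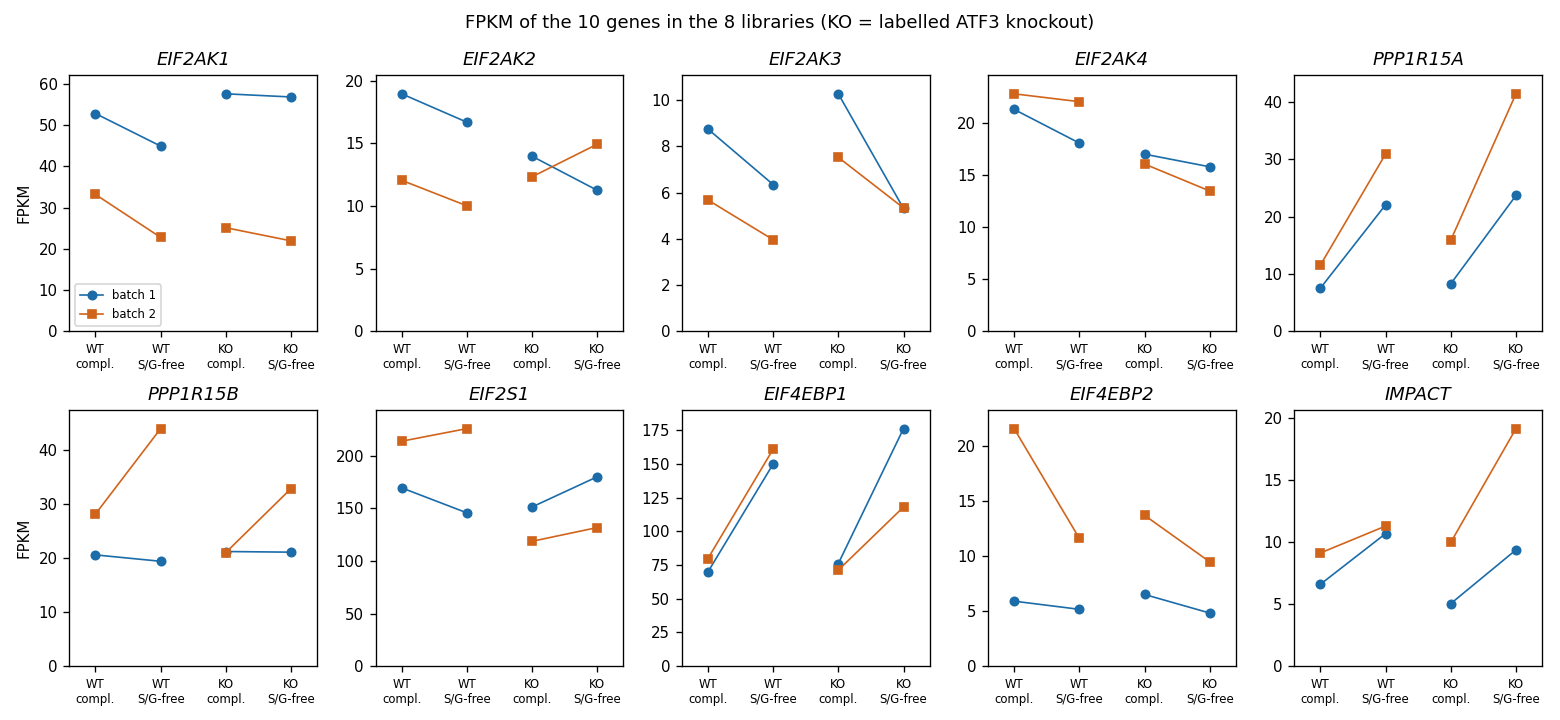
FPKM (linear axis from 0) of each gene in the 8 libraries, with circles for batch 1, squares for batch 2 and lines joining the complete and serine/glycine-free (S/G-free) library of the same genotype and batch. The lines of PPP1R15A and EIF4EBP1 climb in all 4 pairs, to 22.0 to 41.4 and 118 to 176 FPKM, and no serine/glycine-free point lies within the complete-medium range for these 2 genes.

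The first question was how the 10 mRNAs differ between complete medium, labelled 0 h, and 8 h in serine/glycine-free medium. Over both genotypes, with 4 within-batch pairs, 1 of 10 passed the adjusted threshold of 0.05, where 0.133% of all genes tested did. That gene was PPP1R15A, the stress-inducible phosphatase subunit. At an unadjusted p under 0.05 there were 5, PPP1R15A, EIF4EBP1, IMPACT, EIF2AK3 and EIF4EBP2, where 10% of all genes reached it. In wild type alone 0 of 10 passed (0.0556% of all genes) and 2 had an unadjusted p under 0.05 (5.64%), and in the cells labelled knockout 0 passed (0.0167%) and 4 had an unadjusted p under 0.05 (5.59%). The median log2 fold change of the 10 was -0.02 over both genotypes, beside 0.02 over all genes tested, with 5 estimates above 0 and 5 below.

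Directions within the pairs were as follows. Higher in each of the 4 pairs were PPP1R15A, EIF4EBP1 and IMPACT, 3 of 10 where 14.6% of all genes were. Lower in each were 3 of the 4 kinases, EIF2AK1, EIF2AK3 and EIF2AK4, together with EIF4EBP2, 4 of 10 where 11.4% of all genes were. A difference of 0.5 or more on the log2 scale in each pair was met upward by PPP1R15A and EIF4EBP1 over both genotypes (1.01% of all genes), by the same 2 genes in wild type (3.68%) and by these and IMPACT in the cells labelled knockout (3.24%). Downward it was met by 0 of 10 over both genotypes (0.339%), in wild type (2.07%) and in the cells labelled knockout (2.58%).

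**Figure D2:**
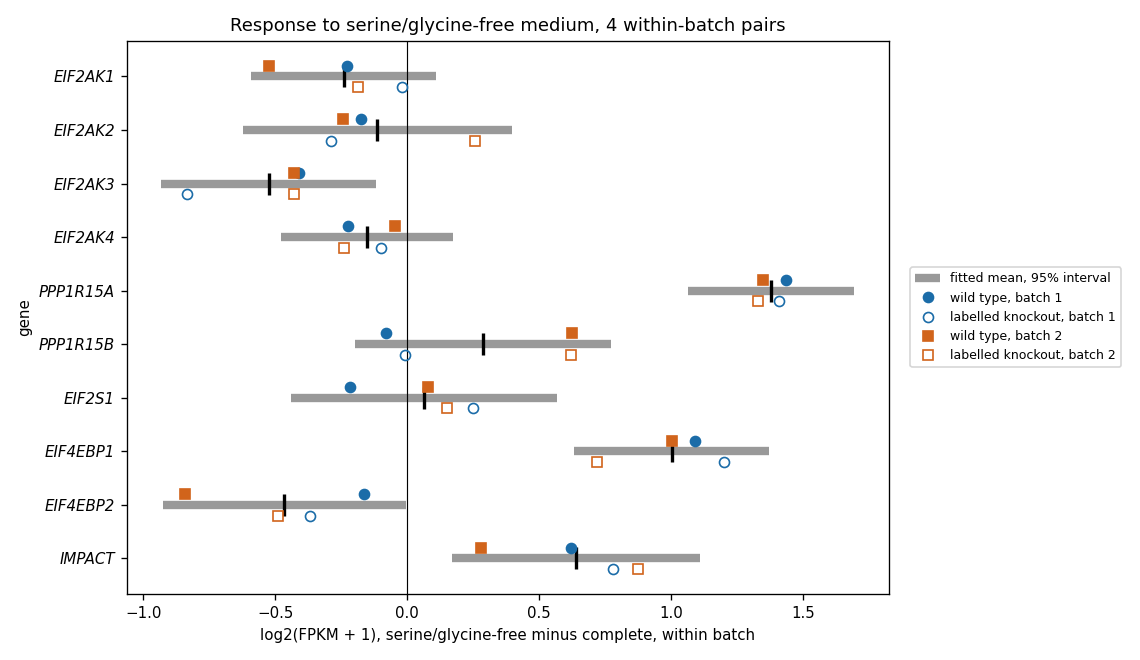
Within-batch differences in log2(FPKM + 1), serine/glycine-free minus complete, for each gene (filled wild type, open labelled knockout, circles batch 1, squares batch 2), with the limma estimate over both genotypes as a tick and its 95% interval as a grey bar. PPP1R15A points lie between 1.33 and 1.44 and EIF4EBP1 points between 0.72 and 1.20, while PPP1R15B points split by batch into a pair near 0 and a pair at 0.62 and 0.63.

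PPP1R15A encodes the phosphatase subunit that is itself made during the stress response and closes it. Its gene (ENSG00000087074) lies on hg19 chromosome 19 from 49375649 to 49379314, a locus shared with no other listed gene. Batch 1 gave 7.52 FPKM for wild type with serine and glycine and 22.0 FPKM without, against 8.29 and 23.7 FPKM for the cells labelled knockout. Batch 2 gave 11.5 and 30.9 FPKM for wild type and 15.9 and 41.4 FPKM for the cells labelled knockout. All 4 serine/glycine-free libraries were above all 4 complete libraries, which held for 2 of the 10 genes upward (1.79% of all genes) and 0 downward (0.945%). The FPKM ratios of serine/glycine-free to complete medium were 2.93 and 2.86 in batch 1 and 2.68 and 2.61 in batch 2, wild type first. PPP1R15A thus rose over both genotypes by a log2 fold change of 1.38 ± 0.13 (SE, 95% interval 1.07 to 1.69, limma adjusted p = 0.0413), the rank by p being 17 of 17994 genes. In wild type alone the log2 fold change was 1.39 ± 0.18 (limma adjusted p = 0.192) and in the cells labelled knockout 1.37 ± 0.18 (adjusted p = 0.303). The call over both genotypes did not hold in fits on 7 libraries, whichever of the 8 was dropped (limma adjusted p = 0.121 to 0.283), nor in the fit that dropped the pair labelled knockout of batch 2 (log2 fold change 1.40 ± 0.11, adjusted p = 0.402), while the estimate lay between 1.31 and 1.46 in all 19 alternatives run.

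PPP1R15B encodes the phosphatase subunit that is made without stress, and its values split by batch. Its listed locus is chromosome 1 from 204346978 to 204463852 (hg19, as for the loci below). The same interval is listed for other genes, so it is not the extent of PPP1R15B alone. This also holds for the loci given below, except those of EIF4EBP1 and EIF4EBP2. The batch 1 levels of PPP1R15B were 20.6 and 19.4 FPKM for wild type, complete medium first, and 21.2 and 21.1 FPKM for the cells labelled knockout. Its batch 2 levels were 28.1 and 43.9 FPKM for wild type and 21.03 and 32.9 FPKM for the cells labelled knockout. The serine/glycine-free to complete ratio was therefore 0.943 and 0.994 in batch 1 and 1.56 in both genotypes of batch 2. Over both genotypes its log2 fold change was 0.29 ± 0.20 (limma adjusted p = 0.677). It lay between 0.09, without wild type, serine/glycine-free, of batch 2, and 0.49, without its batch 1 counterpart, and was 0.10 and 0.47 without the labelled knockout complete library of batch 2 and of batch 1. PIK3C2B, at a mean of 2.64 FPKM, is listed at the same interval, so reads of the 2 genes may have been split by the authors' counting.

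The balance between the 2 phosphatase subunits was read within each library as the PPP1R15A to PPP1R15B ratio of FPKM. In batch 1 it went from 0.365 to 1.14 in wild type and from 0.391 to 1.12 in the cells labelled knockout. In batch 2 it went from 0.410 to 0.703 and from 0.755 to 1.26. PPP1R15A was below PPP1R15B in all 4 complete libraries and above it in 3 of 4 serine/glycine-free libraries, the exception being wild type of batch 2.

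**Figure D3:**
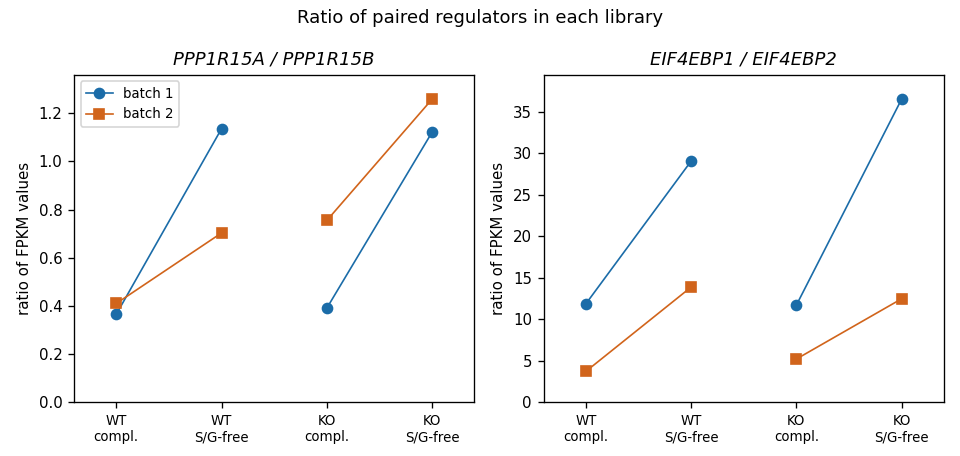
Ratio of FPKM values within each library (linear axes from 0), PPP1R15A over PPP1R15B on the left and EIF4EBP1 over EIF4EBP2 on the right, with circles for batch 1 and squares for batch 2. Both ratios are higher in serine/glycine-free (S/G-free) medium in all 4 pairs, from 0.365 to 0.755 up to 0.703 to 1.26 on the left and from 3.70 to 11.8 up to 12.5 to 36.5 on the right.

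The promoters of the 2 phosphatase subunits are shown because the stress factors ATF4, CHOP and C/EBP are known to act through short promoter elements. RefSeq windows of GRCh38.p14, from 250 bases before to 50 after a start, were searched on both strands for TGATGNAAT, TTGCATCA, TGACGTCA, TGACGCAA and GAAANNGAA, of which TTGCATCA and TGATGNAAT can overlap because TTGCATCA reads TGATGCAA on the other strand. The stretches below run from 250 to 31 bases upstream of the start, 5′ to 3′ on the gene's own strand, with capitals marking the motif found. PPP1R15A is chr19:48872171-48872390 on the plus strand and PPP1R15B is chr1:204411848-204412067 on the minus strand.
PPP1R15A: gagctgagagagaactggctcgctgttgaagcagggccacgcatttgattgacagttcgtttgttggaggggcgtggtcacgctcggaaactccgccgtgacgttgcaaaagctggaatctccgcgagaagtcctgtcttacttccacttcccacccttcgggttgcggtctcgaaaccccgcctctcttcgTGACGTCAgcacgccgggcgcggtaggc
PPP1R15B: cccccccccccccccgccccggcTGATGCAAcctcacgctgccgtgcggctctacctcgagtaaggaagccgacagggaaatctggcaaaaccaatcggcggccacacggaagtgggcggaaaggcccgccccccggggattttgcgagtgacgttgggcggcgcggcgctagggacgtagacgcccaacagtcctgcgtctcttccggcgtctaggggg
PPP1R15A holds TGACGTCA, the cyclic AMP response element, 58 to 51 bases upstream, as do 1.85% of the 35116 promoter windows in the table. PPP1R15B holds TGATGCAA, the form of TTGCATCA on the other strand, 227 to 220 bases upstream, which 0.866% of windows hold. TGATGNAAT (0.991% of windows) and TGACGCAA (0.513%) were found in none of the 8 members that matched the table by symbol. EIF2AK1 and EIF4EBP1 did not match and were not searched. Of 12 genes searched from the stress response list given below, CEBPG and CHAC1 held TTGCATCA and 0 held TGACGTCA, TGATGNAAT or TGACGCAA. Such matches describe letters only.

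EIF2S1 encodes the eIF2 subunit that the kinases phosphorylate and the phosphatase restores. Its listed locus is chromosome 14 from 67707826 to 67853233. Batch 1 gave 169 and 146 FPKM for wild type, complete medium first, and 151 and 179.9 FPKM for the cells labelled knockout. Batch 2 gave 214 and 226 FPKM for wild type and 119 and 132 FPKM for the cells labelled knockout. The media overlap (119 to 214 FPKM in complete, 132 to 226 FPKM in serine/glycine-free), and the log2 fold change over both genotypes was 0.07 ± 0.21 (95% interval -0.44 to 0.57, limma adjusted p = 0.961). Its direction rested on 1 library at a time, lying between -0.13 and 0.26 as each was left out, and it was below 0 without wild type, serine/glycine-free, of batch 2 (-0.13), labelled knockout, serine/glycine-free, of batch 1 (-0.10), labelled knockout, complete, of batch 2 (-0.06) or wild type, complete, of batch 1 (-0.03). ATP6V1D (mean 65.9 FPKM) and MPP5 (38.6 FPKM) are listed at the same interval as EIF2S1.

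Among the kinases, EIF2AK1 was the most abundant mRNA in every library and EIF2AK3 the least. EIF2AK1 held 38.7% to 63.7% of the summed FPKM of the 4 kinases. The order EIF2AK1, EIF2AK4, EIF2AK2, EIF2AK3 held in 7 of 8 libraries, and in the labelled knockout serine/glycine-free library of batch 2 EIF2AK2 (14.9 FPKM) stood above EIF2AK4 (13.5 FPKM). The summed level was lower in serine/glycine-free medium in each pair, in wild type 101.8 to 86.0 FPKM (batch 1) and 73.8 to 58.9 FPKM (batch 2), and in the cells labelled knockout 98.8 to 89.2 FPKM and 61.1 to 55.7 FPKM. No kinase passed the test, and EIF2AK3 alone of the 4 had an unadjusted p under 0.05.

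EIF2AK3, the kinase PERK that senses unfolded protein (chromosome 2, 88838238 to 88931339), had the lowest estimate of the 4. It stood at 8.75 and 6.35 FPKM in wild type of batch 1, at 10.3 and 5.31 FPKM in the cells labelled knockout of batch 1, at 5.68 and 3.96 FPKM in wild type of batch 2 and at 7.52 and 5.34 FPKM in the cells labelled knockout of batch 2, complete medium first. The FPKM ratios were 0.726, 0.518, 0.698 and 0.709 in that order. Every pair was thus lower without serine and glycine, though the complete range (5.68 to 10.3 FPKM) and the serine/glycine-free range (3.96 to 6.35 FPKM) overlap. The log2 fold change over both genotypes was -0.52 ± 0.17 (95% interval -0.93 to -0.12, limma adjusted p = 0.395), and in the cells labelled knockout -0.63 ± 0.23 (adjusted p = 0.892). The latter was -0.38 without the labelled knockout serine/glycine-free library of batch 1.

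EIF2AK4, the kinase GCN2 that senses uncharged tRNA (chromosome 15, 40226347 to 40327797), stood at 21.4 and 18.1 FPKM in wild type of batch 1 and 22.8 and 22.1 FPKM in wild type of batch 2, complete medium first. The cells labelled knockout had 17.04 and 15.8 FPKM in batch 1 and 16.1 and 13.5 FPKM in batch 2. Its log2 fold change over both genotypes was -0.15 ± 0.13 (95% interval -0.48 to 0.17, limma adjusted p = 0.762). It lay between -0.24 and -0.07 as single libraries were left out, the serine/glycine-free libraries moving it most: -0.07 without wild type of batch 1 or labelled knockout of batch 2, -0.24 without wild type of batch 2 and -0.23 without labelled knockout of batch 1. The wider separation was by genotype and is given below.

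EIF2AK1, the haem-regulated kinase (chromosome 7, 6048876 to 6098861), stood at 52.8 and 44.9 FPKM in wild type and 57.6 and 56.8 FPKM in the cells labelled knockout of batch 1, complete medium first. The batch 2 levels were 33.2 and 22.8 FPKM in wild type and 25.1 and 21.9 FPKM in the cells labelled knockout. The log2 fold change over both genotypes was -0.24 ± 0.14 (limma adjusted p = 0.633), and the 4 pairs ran from -0.52 to -0.02. Without the wild-type complete library it was -0.36 for batch 1 and -0.12 for batch 2, and without the labelled knockout serine/glycine-free library of batch 2 it was -0.14. Its listed locus also holds AIMP2 (mean 32.4 FPKM) and the small RNA SNORA42 (1219 FPKM), and the sources used here do not say how reads were divided among them.

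EIF2AK2, the kinase PKR that binds double-stranded RNA (chromosome 2, 37311594 to 37384208), is also an interferon-stimulated gene. It stood at 18.9 and 16.7 FPKM in wild type and 14.0 and 11.2 FPKM in the cells labelled knockout of batch 1, and at 12.05 and 10.01 FPKM in wild type and 12.3 and 14.9 FPKM in the cells labelled knockout of batch 2, complete medium first. Only the labelled knockout pair of batch 2 was higher without serine and glycine, and the log2 fold change over both genotypes was -0.11 ± 0.21 (limma adjusted p = 0.916). Leaving out 1 library moved it between -0.33 and 0.10, with values at or above 0 without labelled knockout, serine/glycine-free, of batch 1 (0.10), wild type, serine/glycine-free, of batch 2 (0.02) or wild type, complete, of batch 1 (0.00). The summed level of 18 interferon-stimulated genes was 101.1 to 141.8 FPKM in the 4 libraries of batch 1, with 107.5 and 101.1 FPKM in the cells labelled knockout against 141.8 and 138.5 FPKM in wild type. In batch 2 it was 644.8 and 792.6 FPKM in the cells labelled knockout against 310.5 and 273.7 FPKM in wild type. In each batch EIF2AK2 had the same direction between genotypes as this sum, though in complete medium of batch 2 its log2 difference was only 0.03. ISG15 and IFI6 alone gave 226 and 189 of the 644.8 FPKM. In complete medium of batch 1, IFI6 was at 35.2 FPKM in wild type and 14.8 FPKM in the cells labelled knockout. IFI44 was at 16.4 and 6.69 FPKM there. In those libraries MX1, OAS3, IRF7, IRF9, IFI44L and RSAD2 were higher in the cells labelled knockout and the rest of the 18 lower. The 18 had a median log2 difference of -0.12 and -0.31 in batch 1 and 1.00 and 1.52 in batch 2, complete medium first. The number of the 18 below 1 FPKM in both media was 4 and 6 in wild type and labelled knockout of batch 1 and 1 and 0 in batch 2, and the part of these genes in the EIF2AK2 values was not tested.

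The promoter letters of EIF2AK2 are shown because PKR is a known target of interferon through such an element. The 30 bases around its RefSeq start, chr2:37156972-37157001 of GRCh38.p14 on the minus strand, are printed 5′ to 3′ on the gene's strand with the GAAANNGAA match in capitals.
EIF2AK2: ggcggagtccaagggGAAAACGAAactgag
The match begins 6 bases upstream of the start, and 8.11% of all promoter windows hold these letters on one of the strands. EIF2AK3, EIF2AK4, EIF2S1, EIF4EBP2 and IMPACT held 0 of the 5 motifs.

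IMPACT (chromosome 18, 22006580 to 22033499) binds GCN1 and so keeps it from activating GCN2. It stood at 6.60 and 10.7 FPKM in wild type and 5.04 and 9.37 FPKM in the cells labelled knockout of batch 1, and at 9.12 and 11.3 FPKM in wild type and 9.97 and 19.1 FPKM in the cells labelled knockout of batch 2, complete medium first. All 4 pairs were higher without serine and glycine, with FPKM ratios of 1.62, 1.86, 1.24 and 1.92 in that order, and the ranges of the media overlap by little (5.04 to 9.97 against 9.37 to 19.1 FPKM). The log2 fold change over both genotypes was 0.64 ± 0.19 (95% interval 0.17 to 1.11, limma adjusted p = 0.372). In the cells labelled knockout it was 0.83 ± 0.27 (adjusted p = 0.892).

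EIF4EBP1 (chromosome 8, 37887859 to 37917883) encodes 4E-BP1, which holds eIF4E away from the cap-binding complex, and is a known ATF4 target. It stood at 69.8 and 150 FPKM in wild type and 76.1 and 176 FPKM in the cells labelled knockout of batch 1, complete medium first. The batch 2 levels were 79.7 and 161 FPKM in wild type and 71.2 and 118 FPKM in the cells labelled knockout. The 4 complete libraries lay close together, within 69.8 to 79.7 FPKM, and all 4 serine/glycine-free libraries were above them. The FPKM ratios were 2.15 and 2.32 in batch 1 and 2.02 and 1.66 in batch 2, wild type first. The log2 fold change over both genotypes was 1.00 ± 0.15 (95% interval 0.63 to 1.37), and it did not pass (limma adjusted p = 0.152, with 0.0568 to 0.957 over the 19 alternatives). In wild type it was 1.05 ± 0.21 (adjusted p = 0.505) and in the cells labelled knockout 0.96 ± 0.21 (adjusted p = 0.794). Without both batch 2 libraries labelled knockout the estimate over both genotypes was 1.12 ± 0.08.

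EIF4EBP2, the second 4E-BP (chromosome 10, 72164135 to 72188374), had estimates of the other sign. It stood at 5.90 and 5.16 FPKM in wild type and 6.51 and 4.82 FPKM in the cells labelled knockout of batch 1, and at 21.6 and 11.6 FPKM in wild type and 13.7 and 9.47 FPKM in the cells labelled knockout of batch 2, complete medium first. All 4 pairs were lower without serine and glycine, with FPKM ratios of 0.875, 0.741, 0.538 and 0.691, and the log2 fold change over both genotypes was -0.46 ± 0.19 (95% interval -0.92 to -0.01, limma adjusted p = 0.494). The range over single libraries left out was -0.65 to -0.27, and -0.27 came without wild type, complete, of batch 2. The EIF4EBP1 to EIF4EBP2 ratio of FPKM went from 11.8 to 29.03 in wild type and from 11.7 to 36.5 in the cells labelled knockout of batch 1, and from 3.70 to 13.9 and from 5.20 to 12.5 in batch 2. The summed level of the 2 4E-BPs relative to EIF4E, the protein they bind, went from 1.17 to 2.36 and from 1.67 to 3.08 in batch 1 and from 2.14 to 3.76 and from 2.27 to 3.25 in batch 2, wild type first. EIF4EBP1 was above EIF4EBP2 in all 8 libraries.

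The second question was whether the cells labelled knockout differ from wild type in these mRNAs. In complete medium 0 of 10 passed (0.0333% of all genes) and 0 had an unadjusted p under 0.05 (4.78%), and in serine/glycine-free medium 0 of 10 passed (0.05%) and 0 had an unadjusted p under 0.05 (5.86%). A difference of 0.5 or more with the same sign in both batches was met by 0 of 10 upward in complete (2.16% of all genes) and serine/glycine-free medium (2.21%), and by 0 of 10 downward (2.42% and 2.99%). These comparisons share libraries with the responses above.

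EIF2AK4 was the member whose genotypes did not overlap: all 4 libraries labelled knockout (13.5 to 17.04 FPKM) were below all 4 wild-type libraries (18.1 to 22.8 FPKM). That pattern downward was met by 1 of 10 genes where 1.6% of all genes met it, and upward by 0 of 10 (0.928%). This order compares levels across the 2 batches, whose tables were normalized separately. In complete medium its difference, labelled knockout minus wild type, was -0.39 ± 0.19 on the log2 scale (95% interval -0.85 to 0.06, limma adjusted p = 0.857) and in serine/glycine-free medium -0.43 ± 0.19 (95% interval -0.89 to 0.03, adjusted p = 0.801). The within-batch values were -0.31 and -0.18 in batch 1 and -0.48 and -0.67 in batch 2, complete medium first. Without both batch 2 libraries labelled knockout, in a fit that still used the wild-type libraries of batch 2, the differences were -0.26 and -0.23. In serine/glycine-free medium the estimate was also -0.26 with the wild-type library and -0.27 with the labelled knockout library of batch 2 from that medium left out. As single libraries were left out it lay between -0.60 and -0.26 in that medium, and between -0.46 and -0.33 in complete medium.

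EIF2S1 had a difference of -0.50 ± 0.29 in complete medium (limma adjusted p = 0.857), made up of -0.16 in batch 1 and -0.84 in batch 2. Without both batch 2 libraries labelled knockout it was -0.09. As single libraries were left out it lay between -0.76 and -0.24, these being the values without the labelled knockout complete library of batch 1 and of batch 2, and it was -0.31 without wild type, complete, of batch 2. PPP1R15A had a difference of 0.25 ± 0.18 in serine/glycine-free medium (limma adjusted p = 0.808), with 0.10 in batch 1 and 0.41 in batch 2, and stood higher in the cells labelled knockout in both media of both batches. Its value without both batch 2 libraries labelled knockout was 0.12, as it was without wild type, serine/glycine-free, of batch 2, and without its batch 1 counterpart it was 0.39. For such a direction in both media of both batches, as PPP1R15A and EIF2AK4 had, the share of all genes was not counted. EIF2AK1, EIF2AK2, PPP1R15B, EIF4EBP1 and IMPACT had opposite directions between genotypes in the 2 batches.

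**Figure D4:**
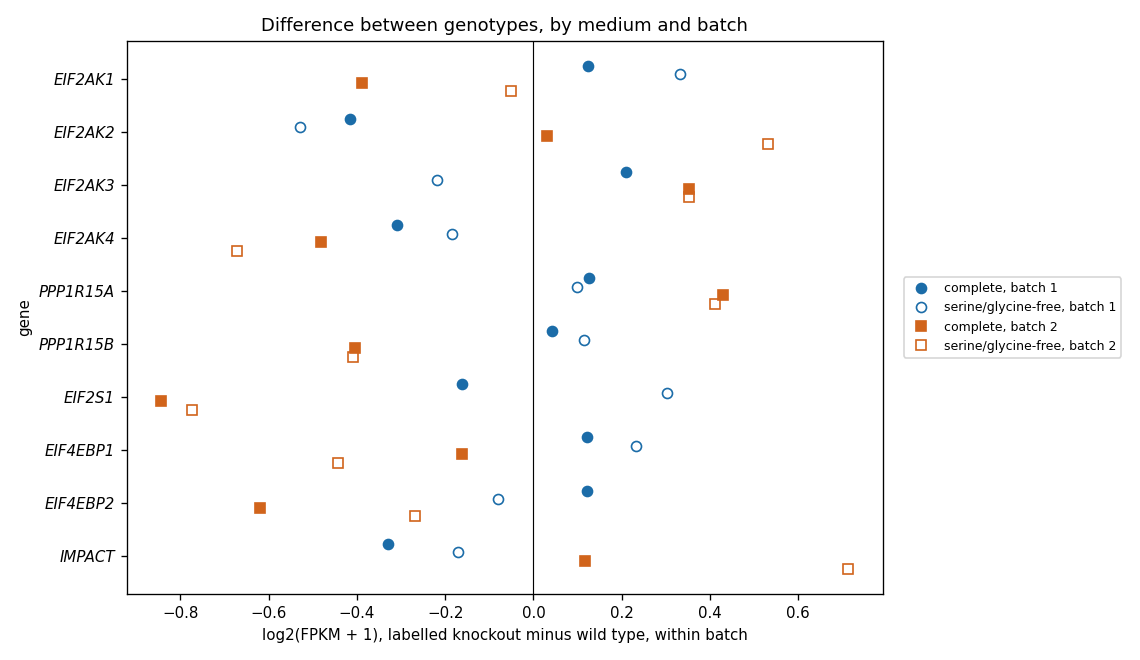
Within-batch differences in log2(FPKM + 1), labelled knockout minus wild type, for each gene (filled complete, open serine/glycine-free medium, circles batch 1, squares batch 2). All 4 EIF2AK4 points lie below 0, from -0.67 to -0.18, and all 4 PPP1R15A points above 0, from 0.10 to 0.43, while the points of 5 genes lie on opposite sides of 0 in the 2 batches.

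The third question was whether the response itself depends on the genotype label. For the difference of the responses, labelled knockout minus wild type, 0 of 10 passed (0.0611% of all genes) and 0 had an unadjusted p under 0.05 (1.53%). For PPP1R15A the difference was -0.02 (95% interval -0.65 to 0.60) and for EIF4EBP1 -0.09 (95% interval -0.83 to 0.65), intervals that still allow differences of more than 0.5 in both directions. The smallest p belonged to IMPACT, with 0.38 ± 0.38 (95% interval -0.56 to 1.32), and EIF2AK1, with 0.27 ± 0.29 (95% interval -0.43 to 0.97), both at a limma adjusted p of 1.00. As single libraries were left out these 2 differences lay between 0.04 and 0.71 for IMPACT and between 0.03 and 0.52 for EIF2AK1. The lowest value came without wild type, serine/glycine-free, of batch 2 for IMPACT and without wild type, complete, of batch 2 for EIF2AK1, and the highest without the batch 1 library of the same group.

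Related genes of the same pathways are given from lists made with earlier results of these data known, so their counts are descriptions. Of 13 transcripts of the integrated stress response, which ATF4 and its partners drive, 2 were called higher over both genotypes and 10 were higher at an unadjusted p under 0.05, with a median log2 fold change of 1.43 beside 0.02 over all genes. Of all genes 0.133% were called and 10% had an unadjusted p under 0.05, in either direction. TRIB3, a pseudokinase that restrains ATF4, rose by 2.80 ± 0.22 on the log2 scale (limma adjusted p = 0.0274), CEBPG, an ATF4 partner, rose by 1.29 ± 0.11 (adjusted p = 0.0366), and CEBPB had 1.30 ± 0.15 (adjusted p = 0.0789). In that list 12 of 13 were higher in each of the 4 pairs, and the exception was VLDLR. Over all genes 0 were called with the wild-type library from serine/glycine-free medium of either batch, or the labelled knockout library from complete medium of batch 1, left out, with no filter on low values, or without both batch 2 libraries labelled knockout, so these calls were lost in those 5 settings too. With no replicate block 1 gene in all was called, so at least 1 of the calls of TRIB3 and CEBPG was lost there as well. Whether these calls held in the remaining settings is not given here. PPP1R15A, with 1.38, lay near the median of the 13 stress response transcripts.

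The counts of the lists that follow stand beside the same 0.133% and 10% of all genes. A list of 11 genes held the other subunits of eIF2, those of its exchange factor eIF2B, and the separate factors EIF5, EIF2A, EIF2D and CDC123. Of these 11, 0 passed and 2, EIF2S2 and EIF2A, were higher at an unadjusted p under 0.05, with a median of 0.18. EIF2S2, the eIF2 beta subunit, had a log2 fold change of 0.79 ± 0.21 (limma adjusted p = 0.341), with wild type at 37.7 and 63.6 FPKM in batch 1 and 46.0 and 98.2 FPKM in batch 2, and the cells labelled knockout at 34.2 and 48.6 FPKM and at 76.2 and 138.6 FPKM, complete medium first. EIF2S3, the gamma subunit, had 0.23 ± 0.10, so the estimates of the 3 eIF2 subunits were 0.07, 0.79 and 0.23 for alpha, beta and gamma. EIF2A, an initiation factor separate from eIF2, had 0.35 ± 0.11 (adjusted p = 0.406). Of the 10 kinase regulators found, 0 passed and 1, HSP90AB1, was lower at an unadjusted p under 0.05, with -0.29 ± 0.11, while GCN1L1, which GCN2 needs for activation, had -0.23 ± 0.12 and KIAA0141 (DELE1), which links mitochondrial stress to HRI, had 0.25 ± 0.14. The median of these regulators was 0.05, and -0.11 without both batch 2 libraries labelled knockout. Of the 5 genes for catalytic subunits of protein phosphatase 1 and actin, with which PPP1R15A works, 0 passed and 0 had an unadjusted p under 0.05, ACTG1 (0.24 ± 0.16), PPP1CB (0.12 ± 0.16) and PPP1CC (-0.08 ± 0.11) having the smallest p.

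Of 13 cap-binding genes tested, 0 passed and 2 were higher at an unadjusted p under 0.05: EIF4A1, the initiation helicase (0.27 ± 0.09), and PDCD4, which inhibits that helicase (0.78 ± 0.27). EIF4G3, a scaffold of the complex, had 0.21 ± 0.20, and the median of the list was 0.07. Of 19 genes for mTORC1 and its regulators 0 passed, with 1 higher and 1 lower at an unadjusted p under 0.05 and a median of 0.01. TBC1D7, a subunit of the TSC complex that inhibits mTORC1, had 0.40 ± 0.12, and RPS6KB1, the S6 kinase, 0.34 ± 0.15. GATSL2, the lower one, was at 0.13 to 1.54 FPKM in complete medium and listed at 0 in all 4 serine/glycine-free libraries. PPP1R15A and EIF4EBP1, at 1.38 and 1.00, were thus above every estimate among the listed genes for eIF2, kinase regulation, phosphatase, cap binding and mTORC1, the highest of those being EIF2S2 at 0.79.

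**Figure D5:**
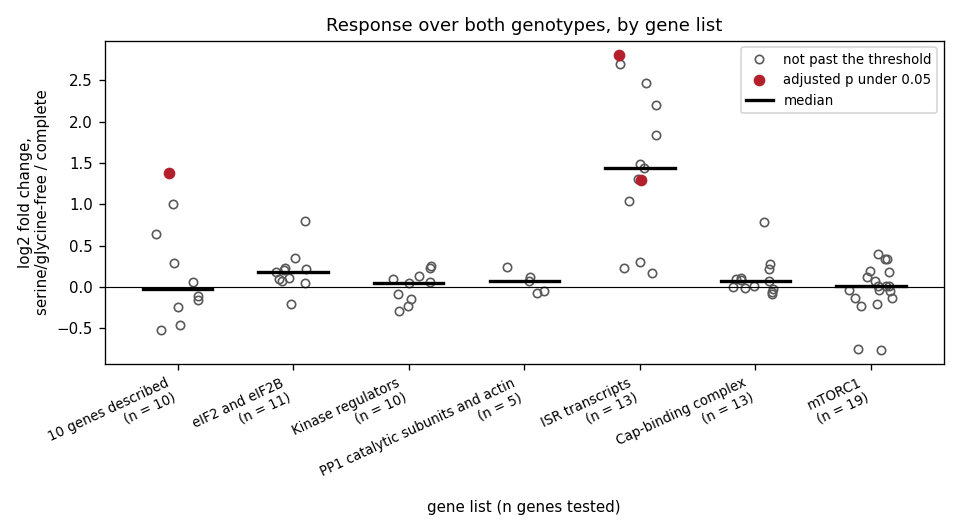
Limma log2 fold change, serine/glycine-free over complete medium over both genotypes, of each tested gene in the 10 described here and in 6 lists (filled for adjusted p under 0.05, bar at the median, points spread sideways at random for sight only). The stress response transcripts have a median of 1.43, and the medians of the other lists lie between -0.02 and 0.18.

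Genes whose pattern over the 8 libraries was most like each member's were found by Pearson r of log2(FPKM + 1) centred within batch, over 10095 genes at a mean of 5 FPKM or more. The libraries share medium, genotype label and batch, so these are descriptions with no p. For PPP1R15A they were PCK2, the mitochondrial phosphoenolpyruvate carboxykinase (r = 0.990), MAPKAPK5 (0.990) and PRNP (0.989), and 198 genes had r of 0.9 or more. For EIF4EBP1 they were CIRBP (0.989), SLC9B2 (0.986) and NOP58 (0.986), with 167 genes at 0.9 or more. For EIF2AK4 they were ADH5 (0.990), HSPB11 (0.989) and OAZ2 (0.985), and for EIF2AK3 TAPBP (0.992), TECR (0.989) and ACBD4 (0.976). For EIF2AK1 they were SLC5A3 (0.984), AARS2 (0.959) and ATP5I (0.958), and for EIF2AK2 TAF6L (0.968), the small RNA SNORA48 (0.968) and PARD6B (0.961). For PPP1R15B they were SREK1IP1 (0.990), RAB5A (0.982) and BMS1 (0.979), for EIF2S1 TMEM115 (0.981), KLHL28 (0.981) and CLASP2 (0.980), for EIF4EBP2 CCDC115 (0.993), NCAPD2 (0.985) and ST6GALNAC6 (0.980), and for IMPACT SLC25A26 (0.976), EPB41L4A-AS1 (0.974) and CDKL1 (0.972). The number of genes at 0.9 or more ran from 21 for EIF2AK1 to 279 for EIF2S1.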

How the data were processed

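Total RNA of 8 cultures was extracted and sequenced, per the labels. Cells grew 2 days in complete medium before the change to serine/glycine-free medium for 8 h, and the sources used here do not say whether complete-medium cultures were also washed. Each batch has its own table of FPKM values as deposited by the authors, made with TopHat, Cufflinks and Cuffdiff on hg19 per the submitters' processing notes, with versions and settings not given in the sources used here. This unit corrects for length, the tables were normalized separately, and an exact 0 can be a failed estimate. Loci are hg19, 1-based, as listed, and 3 of the 10 genes share theirs with no listed gene. The other 7 carry an interval that is listed for several genes and can be wider than the gene itself. Reads of these 7 may have been split with neighbours.

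On log2(FPKM + 1), a scale that understates changes of low genes, a model of the 4 groups plus batch was fitted with limma 3.58.1 (R 4.3.3) for genes at 1 FPKM or more in at least 2 libraries (17994), with a trended prior, two-sided p-values and Benjamini-Hochberg adjustment over all genes. Residual degrees of freedom were 3 and prior ones 2.97, and p-values rest on 2 experiments. The labels state that replicate numbers mark a shared batch, and deviations of same-numbered libraries correlated at 0.650 to 0.775 over 6 pairs. The members, lists, motifs and tests were chosen with earlier results of these data known. All 10 members are named, with fitted values over both genotypes for all, and elsewhere for those with unadjusted p under 0.05 or, failing that, the 2 with the smallest p; up to 3 genes per list are named, plus those called. The steps were tested on simulated data. Alternative settings changed the libraries, gene set, prior, block, scaling, filter or pseudocount.

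Promoter sequences are RefSeq's (GRCh38.p14), which 8 of 10 members matched. Python 3.11.15 with pandas 2.3.3 and matplotlib 3.10.9 made the tables and figures.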

Additional observations from a re-analysis of the deposited data

Results flagged for a closer look

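Some members had differences that pointed in opposite directions in the 2 batches, every value of batch 1 on one side of 0 and every value of batch 2 on the other. For the response to the medium this held for PPP1R15B, the phosphatase subunit made without stress, whose mean log2 difference was -0.04 in batch 1 and 0.62 in batch 2, a gap of 0.67. It held for 11.0% of all genes tested.

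For the genotype difference, labelled knockout minus wild type, it held for 5 members and for 19.5% of all genes. EIF2AK2 went from -0.47 in batch 1 to 0.28 in batch 2 (gap 0.75) and IMPACT from -0.25 to 0.41 (gap 0.67). EIF2AK1 went from 0.23 to -0.22 (gap -0.45), PPP1R15B from 0.08 to -0.41 (gap -0.48) and EIF4EBP1 from 0.18 to -0.30 (gap -0.48). With 1 library per group and batch, none of these differences between batches was tested.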

How the results depend on the processing

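The count of members past the threshold over both genotypes was 1, PPP1R15A, as reported. It was 0 with no filter on low values, no replicate block, a prior without a trend, a pseudocount of 0.1, quantile normalization or without both batch 2 libraries labelled knockout, and ranged from 0 to 0 when each library was left out. It was 1 in the other 5 of 19 alternatives: a pseudocount of 0.5, a mean of 5 FPKM or more, upper-quartile scaling, protein-coding genes only and a replicate block per genotype and batch (PPP1R15A adjusted p = 0.0384, against 1.00 with no replicate block and 0.0187 to 1.00 over all 19). The log2 fold change of PPP1R15A stayed between 1.31 and 1.46, and the cause of the lost calls was not tested. The other 5 comparisons called 0 members in every alternative run. Of the member estimates followed over the alternatives, only those of EIF2AK2 and EIF2S1 over both genotypes changed sign. They did so only when a library was left out, EIF2AK2 lying between -0.33 and 0.10 and EIF2S1 between -0.13 and 0.26. Members not named for a comparison were not followed there. With upper-quartile scaling 1 member, against 0, was lower by 0.5 or more in both batches of the cells labelled knockout. The number of all genes called over both genotypes ran from 0 to 39, beside 24. Depth is unknown, and with 2 libraries per group the number of experiments limits the precision.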
